A study of Mus musculus with 15 samples.

Results

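The Krüppel-like factor (KLF) transcription factors examined here were 8 genes, chosen by symbol: Klf2, Klf3, Klf4, Klf6, Klf7, Klf10, Klf12 and Klf13. Of these, 7 had a row among the 11262 genes measured in naïve and TCR activated cells, and 7 had a row among the 11211 genes measured in cytotoxic T lymphocytes (CTL). Klf12 had no row in the first table and Klf4 had none in the second, so 6 members were measured in both.

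The series held 15 RNA sequencing libraries of mouse CD8+ T cells carrying the P14 T cell receptor transgene, which recognises gp33–41, a peptide of the LCMV glycoprotein. In the first table, naïve cells (3 libraries) were sorted ex vivo by surface markers as TCRβ+ CD8+ cells with low CD44, and the other cells spent 24 h in culture with this peptide at 100 ng/ml, together with IL-12 at 2 ng/ml plus IL-2 at 20 ng/ml, either with vehicle (TCR, 3 libraries) or with 10 µM IC87114, a selective inhibitor of the PI3K catalytic subunit p110δ (TCR + PI3Kdi, 3 libraries), before live CD8+ cells were sorted. Each of these replicates came from cells of 3 female mice aged 9 to 13 weeks that were pooled and divided between conditions, so a library describes a pool and not an animal. In the second table, P14 T cells had been activated for 48 h and expanded for 4 days in IL-2, washed on day 6, and then kept for 24 h with 20 ng/ml IL-2 (CTL IL-2, 3 libraries) or without it (CTL no IL-2, 3 libraries). The age of the mice used for CTL is not given in the sources used here, and all groups of both tables carried the P14 receptor.

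KLF proteins bind CACCC and GC-rich DNA through zinc fingers at their carboxyl end, and differ in the amino-terminal region that recruits activators or repressors. In T cells, KLF2 is known for keeping naïve cells quiescent and for driving genes of lymph node homing and exit, among them S1pr1. Transcription of Klf2 is promoted by FOXO1, which PI3K and AKT signalling keeps out of the nucleus.

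The start sites of 4 members are shown because these mRNA took different courses in the data: Klf2, Klf3 and Klf13 were abundant in naïve cells and were called higher in CTL without IL-2, whereas Klf6 was the most abundant member of TCR activated cells. Each line gives the 250 bases before the transcription start in RefSeq, build GRCm38.p6, read 5′ to 3′ on the strand of the gene. Capitals mark 3 motifs on either strand: the CACCC box CCACCC, the GC box GGGCGG and the MEF2 motif. The positions are chr8:72318812-72319061 (plus strand) for Klf2, chr5:64803271-64803520 (plus strand) for Klf3, chr7:63938916-63939165 (minus strand) for Klf13 and chr13:5861239-5861488 (plus strand) for Klf6. The Klf2 gene itself spans chr8:72319062-72321654. The other members lie on chromosomes 4 (Klf4), 1 (Klf7), 15 (Klf10) and 14 (Klf12).
Klf2: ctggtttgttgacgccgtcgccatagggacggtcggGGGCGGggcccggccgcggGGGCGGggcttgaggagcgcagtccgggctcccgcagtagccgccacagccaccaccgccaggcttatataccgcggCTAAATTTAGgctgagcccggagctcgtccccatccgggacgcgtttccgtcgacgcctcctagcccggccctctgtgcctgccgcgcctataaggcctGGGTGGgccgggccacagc
Klf3: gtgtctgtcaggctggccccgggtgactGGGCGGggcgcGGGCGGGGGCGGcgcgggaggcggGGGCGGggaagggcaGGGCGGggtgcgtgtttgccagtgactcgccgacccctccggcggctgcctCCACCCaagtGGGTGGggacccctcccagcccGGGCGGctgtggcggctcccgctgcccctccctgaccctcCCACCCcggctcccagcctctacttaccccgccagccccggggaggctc
Klf13: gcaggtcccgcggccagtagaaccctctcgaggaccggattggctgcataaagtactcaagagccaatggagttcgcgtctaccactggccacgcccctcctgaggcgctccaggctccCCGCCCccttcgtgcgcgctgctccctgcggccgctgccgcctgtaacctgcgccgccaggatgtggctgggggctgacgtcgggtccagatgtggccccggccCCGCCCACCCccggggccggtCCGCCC
Klf6: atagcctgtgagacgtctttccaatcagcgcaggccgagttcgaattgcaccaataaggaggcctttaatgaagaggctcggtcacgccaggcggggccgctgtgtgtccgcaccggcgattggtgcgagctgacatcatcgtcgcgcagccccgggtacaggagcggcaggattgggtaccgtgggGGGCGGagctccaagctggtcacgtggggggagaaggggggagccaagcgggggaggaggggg

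The search covered the RefSeq windows of 300 bases, 250 before and 50 after the start, of which 7 members had one. The start used for a window is that of 1 RefSeq transcript. It is the outer end of the gene for the 4 members printed above and for Klf4, but lies 956 bases inside the gene for Klf7 and 136095 bases inside it for Klf12, so the Klf12 window says nothing of the gene's outer start. The motifs were chosen with these sequences in view. CCACCC was found in 4 of the 7 windows (Klf2, Klf3, Klf7 and Klf13) and in 31.5% of 32851 windows of all genes. GGGCGG was found in 6 of the 7, the exception being the internal Klf12 window, and in 35.7% of all windows. The window of Klf3 held 3 CACCC boxes and 6 GC boxes, the most of any member. In Klf13 a GC box at base -27 and a CACCC box at base -23 overlapped, and in Klf2 the CACCC box began 19 bases before the start. A MEF2 motif was present in 1 window, that of Klf2, where it began 118 bases before the start, against 3.19% of all windows. The FOXO letters GTAAACA were in 0 of the 7 windows and in 3.65% of all windows, which says only that these letters are not in this stretch. The windows of Klf3, Klf4, Klf13 and Klf2 had a GC content of 76.7%, 74.3%, 72.0% and 69.3%, the internal window of Klf12 had 45.7%, and the median of all windows was 52.7%.

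**Figure D1:**
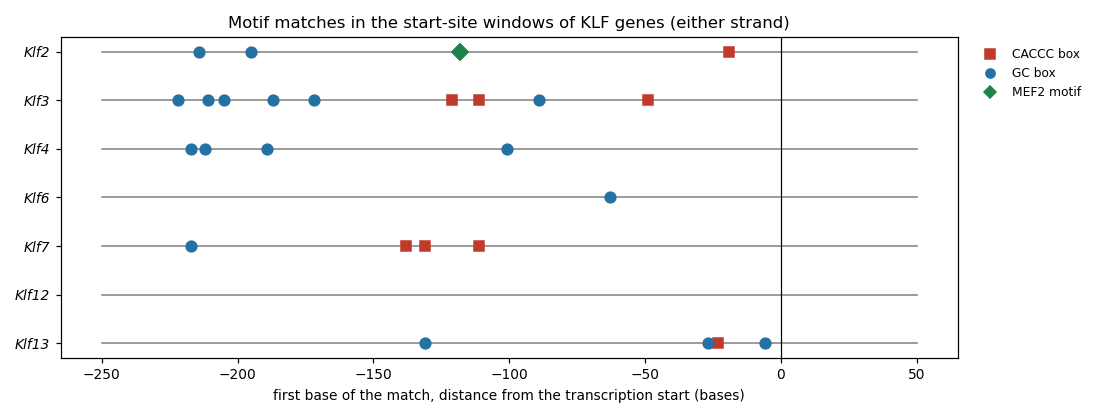
Matches to the CACCC box (squares), the GC box (circles) and the MEF2 motif (diamond) on either strand in the RefSeq start-site window of 7 KLF genes; the x axis is the distance in bases of the first matched base from the transcription start. Klf3 holds 6 GC boxes, the MEF2 motif stands in the Klf2 window, and the Klf12 window, which lies at a start 136095 bases inside the gene, has no match.

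Levels are FPKM, fragment counts scaled by exon length and by library size after TMM (trimmed mean of M-values) normalisation. They are relative levels of mRNA and not amounts per cell. In these bulk samples, fewer cells of a type and less RNA per cell cannot be told apart. Fold changes are differences of log2(FPKM + 0.1) fitted with limma across all genes of a table. A gene was called higher or lower at a Benjamini-Hochberg adjusted p under 0.05 with a change over 2-fold. Counts at an unadjusted p under 0.05 carry no fold limit, and no share of all genes at that threshold is given. Without a fold limit, 9096 of 11262 genes passed even the adjusted p for TCR against naïve, and 8056 of 11211 in CTL. For PI3Kdi against TCR it was 1975. Such counts are therefore not read as results about the members or lists. The 2 tables were normalised separately, so levels across them are set side by side and not tested. With 3 libraries against 3, an exact permutation test of a single value cannot go below p = 0.1, and only the fit across genes was used. Libraries were similar in scale, with a median FPKM of 11.2 to 12.28 over the listed genes, and all 6 CD8 T cell markers (Cd8a, Cd8b1, Cd3d, Cd3e, Cd3g and Lck) were present in every group. Their summed level was 3699 to 4041 FPKM in naïve cells, 841.7 to 878.9 in TCR and 1020 to 1170 in TCR + PI3Kdi cells, 1341 to 1396 in CTL IL-2 and 2228 to 2463 in CTL no IL-2. All 6 markers were called lower than in naïve cells, beside 23.7% of all genes for TCR and 21.3% for TCR + PI3Kdi cells. Within each table the summed marker level had the same order of groups as Klf2 and Klf13. With PI3Kdi against TCR, 0 of the 6 markers were called higher, beside 3.04% of all genes, and 0 lower, beside 2.10%. In CTL without IL-2, 3 of the 6 were called higher, beside 14.3% of all genes, and 0 lower, beside 13.9%. The part of these markers in the KLF results was not tested. Of B cell markers 5 of 6 had a row, with a sum of 25.84 to 45.82 FPKM in naïve, 13.59 to 29.17 in TCR and 5.3 to 8.15 in TCR + PI3Kdi cells. Myeloid markers (2 of 6 with a row) summed to at most 4.97 FPKM in this table, and none of 5 erythroid markers had a row in either table.

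TCR activation was accompanied by lower Klf2, Klf3, Klf13 and Klf7 mRNA. Of the 7 members tested, 4 were called lower, beside 23.7% of all genes, and 0 were called higher, beside 25.0% of all genes. At an unadjusted limma p under 0.05, 1 member was higher (Klf6) and 4 were lower. Of other markers, Cd79b and Itgam were called lower and Zbtb7b (0.09 to 0.54 FPKM) and Zbtb46 (0.08 to 0.567 FPKM) higher in the same comparison, and their part in the KLF results was not tested. The median log2 fold change was -1.15 over the 7 members and 0.01 over all genes.

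Klf2, the quiescence and trafficking factor, was at 192.93, 260.98 and 222.9 FPKM in the 3 naïve libraries and at 0.39, 0.38 and 1.46 FPKM in the 3 TCR libraries. The groups lay far apart, and the third TCR library stood above the other two. The mean fell from 225.6 ± 34.1 to 0.743 ± 0.621 FPKM (SD, n = 3), a log2 fold change of -8.29 ± 0.40 (SE, adjusted p = 6.08e-09, limma). Since TCR libraries were close to the added 0.1 FPKM, the size of this change depends on that constant and was -7.07 when 1 FPKM was added. It was -8.86 without replicate 3.

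Klf3, a repressor that works through the CtBP corepressors, was at 66.85, 71.87 and 91.17 FPKM in naïve cells and at 4, 4.89 and 4.79 FPKM after activation. All 3 TCR libraries were below every naïve library. Klf3 mRNA fell by 4.03 on the log2 scale (SE 0.20, adjusted p = 8.6e-09, limma), to 5.95% of the naïve mean. Exons of Klf3 overlap those of Gm20033 on the other strand over 404 bases, and the strand setting of the read counting is not given in the sources used here.

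Klf13, known as an activator of Ccl5 in T cells, was nearly the same in all 3 naïve libraries, at 86.77, 86.93 and 87.49 FPKM. After activation it was at 13.97, 13.72 and 13.75 FPKM. The libraries of each group lay close together, with means of 87.06 ± 0.378 and 13.81 ± 0.137 FPKM (SD, n = 3), and the groups did not overlap. The log2 fold change was -2.65 ± 0.07 (SE, adjusted p = 1.2e-10, limma).

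Klf7, a broadly expressed member of the family, was at 12.86, 11.13 and 13.87 FPKM in naïve and 6.4, 4.87 and 5.64 FPKM in TCR cells. The groups did not overlap, and the mean fell to 44.7% (log2 fold change -1.15 ± 0.17, SE, adjusted p = 7.4e-05, limma). Klf7 exons overlap those of the antisense-strand gene Gm26649 over 3196 bases.

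Klf6, a widely expressed activator, was not called. It was at 26.45, 39.59 and 32.16 FPKM in naïve libraries and at 48.8, 49.68 and 47.09 FPKM in TCR libraries. Every TCR library was above every naïve library, but the ratio of the means was 1.48, below the 2-fold limit (log2 fold change 0.59 ± 0.12, SE, adjusted p = 0.0011, limma). Klf10, a TGFβ-inducible repressor, was at 4.53, 4.2 and 4.08 FPKM in naïve and 4.22, 3.4 and 3.52 FPKM in TCR libraries. These ranges overlapped (log2 fold change -0.20, 95% interval -0.49 to 0.09, adjusted p = 0.17, limma).

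Klf4, which restrains CD8+ T cell proliferation in some settings, was close to the lower end of the table. It was at 0.1, 1.45 and 0.19 FPKM in naïve, 0.3, 0.56 and 0.58 in TCR and 0.29, 0.28 and 0.08 FPKM in TCR + PI3Kdi libraries. The single high value was that of naïve replicate 2, which also had the highest B cell marker sum of the 9 libraries (45.82 FPKM). The part of these markers in the Klf4 level was not tested. The log2 fold change between naïve and TCR cells was 0.33 with a 95% interval from -1.08 to 1.75 (adjusted p = 0.64, limma), and its sign changed with the constant added and with the replicate left out. It was -0.0011 without replicate 1 and 1.11 without replicate 2.

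**Figure D2:**
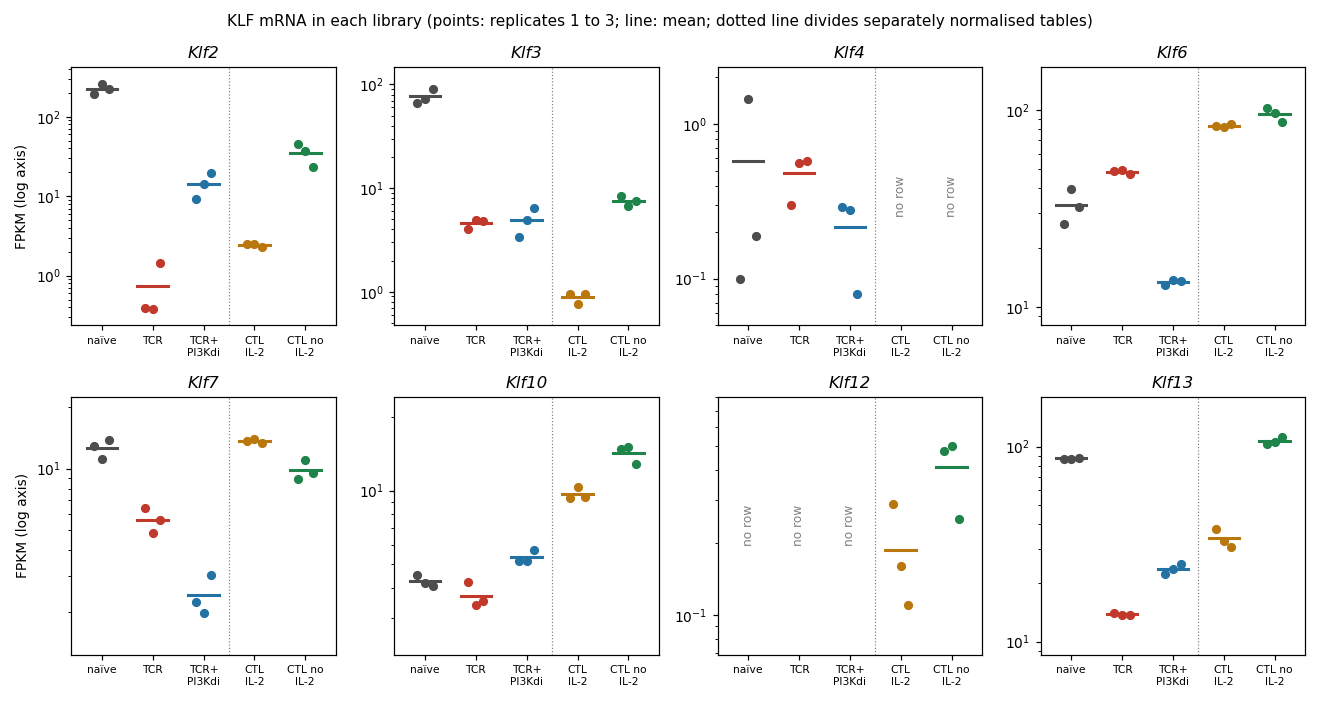
FPKM of each KLF mRNA (log axis) in the 15 libraries, with points for replicates 1 to 3 and a line at the group mean; the dotted line divides the separately normalised tables. Klf2 spans 0.38 to 260.98 FPKM, with TCR + PI3Kdi cells between TCR and naïve cells, and Klf6 is lowest in the 3 TCR + PI3Kdi libraries.

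The question of the next comparison was what p110δ activity contributes to the state of TCR activated cells. With PI3Kdi, Klf2 mRNA was 19.3-fold higher, Klf6 and Klf7 were lower, and Klf3 was at a mean of 4.89 FPKM against 4.56 FPKM in TCR cells. Of the 7 members, 1 was called higher, beside 3.04% of all genes, and 2 were called lower, beside 2.10%. The median log2 fold change was 0.06 over the members and -0.01 over all genes.

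Klf2 was at 9.33, 14.3 and 19.51 FPKM in the TCR + PI3Kdi libraries, against 0.39, 0.38 and 1.46 FPKM in TCR libraries. All 3 libraries with the inhibitor were above all 3 without it. The ratio between libraries with the same replicate number was 23.9, 37.6 and 13.4. Klf2 rose by a log2 fold change of 4.28 ± 0.40 (SE, adjusted p = 5.9e-05, limma), or 19.4-fold with a 95% interval from 10.4-fold to 35.9-fold. It was 3.14 when 1 FPKM was added. The level with PI3Kdi was still 6.37% of that in naïve cells.

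Klf13 was at 22.28, 23.63 and 24.95 FPKM with PI3Kdi and at 13.97, 13.72 and 13.75 FPKM without it. The groups did not overlap, and each pair of replicates gave a ratio above 1 (1.59, 1.72 and 1.81). The log2 fold change of 0.77 ± 0.07 (SE, adjusted p = 6.8e-05, limma) was below the 2-fold limit and so was not called. Klf10 was at 5.16, 5.13 and 5.7 FPKM with PI3Kdi, above all 3 TCR libraries, with a log2 fold change of 0.51 ± 0.13 (SE, adjusted p = 0.020, limma) that was also below the limit. Its adjusted p in limma was 0.046, 0.21 and 0.16 without replicate 1, 2 or 3.

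Klf3 was not called with PI3Kdi. It was at 3.36, 4.94 and 6.36 FPKM with PI3Kdi, and the TCR libraries at 4 to 4.89 FPKM lay within that range. The log2 fold change was 0.06 with a 95% interval from -0.39 to 0.51 (adjusted p = 0.88, limma), so a rise of the size seen for Klf2 lay outside the interval. Without replicate 3 it was -0.12.

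Klf6 was at 12.92, 13.73 and 13.48 FPKM with PI3Kdi, against 48.8, 49.68 and 47.09 FPKM in TCR cells. The 3 libraries of each group were close to each other and the groups were well apart. Klf6 mRNA fell by 1.85 on the log2 scale (SE 0.12, adjusted p = 7.7e-06, limma), to 27.6% of the level without inhibitor, with pair ratios of 0.265, 0.276 and 0.286. Klf7 was at 2.23, 1.98 and 3.03 FPKM with PI3Kdi, below all TCR libraries, and fell by 1.20 on the log2 scale (SE 0.17, adjusted p = 0.00088, limma). With 1 FPKM added, the Klf7 difference was -0.96 and no longer 2-fold. For Klf4 the log2 fold change was -0.92 with a 95% interval from -2.33 to 0.50 (adjusted p = 0.37, limma). Of 5 B cell markers with a row, 3 were called lower with PI3Kdi, beside 2.10% of all genes, among them Ms4a1 and Cd74. Zbtb46 (the 1 dendritic cell marker with a row) was called lower too. So was Eomes (the 1 NK cell marker with a row in the first table, also expressed by CD8+ T cells). The part of these changes in the KLF results was not tested.

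Against naïve cells, TCR + PI3Kdi cells had 5 members called lower, beside 21.3% of all genes, and 0 called higher, beside 23.6%. At an unadjusted limma p under 0.05, 1 member was higher (Klf10) and 5 were lower. Of other markers, 4 of 5 for B cells, Itgam and Eomes were called lower in the same comparison and Zbtb7b, a CD4 lineage factor, was called higher (0.09 to 0.95 FPKM), and their part in the KLF results was not tested. This comparison shares its naïve libraries with the comparison of TCR and naïve cells and its TCR + PI3Kdi libraries with the comparison of the inhibitor, so the values are given side by side. The log2 fold change against naïve cells was -4.01 for Klf2 with PI3Kdi and -8.29 without it. For Klf3 the corresponding values were -3.98 and -4.03, for Klf13 they were -1.88 and -2.65, and for Klf7 they were -2.36 and -1.15. Klf6 was at -1.27 with PI3Kdi (adjusted p = 2.6e-06, limma) and 0.59 without it, so it lay below the naïve level in all 3 libraries with the inhibitor and above it in all 3 without. Klf10 was at 0.31 with PI3Kdi (adjusted p = 0.045, limma), below the 2-fold limit. Its adjusted p in limma was 0.053 with a replicate block. It was 0.061, 0.15 and 0.24 without replicate 1, 2 or 3. For Klf4 the log2 fold change was -0.58 (adjusted p = 0.42, limma).

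The order of the groups thus differed between members. For Klf2 and Klf13 it was naïve, TCR + PI3Kdi, TCR from high to low, with no overlap between neighbours, although the step between TCR and TCR + PI3Kdi was under 2-fold for Klf13. For Klf7 it was naïve, TCR, TCR + PI3Kdi, and for Klf6 it was TCR, naïve, TCR + PI3Kdi. For Klf3 the naïve level was highest and the activated groups overlapped. For Klf10 the TCR + PI3Kdi level was highest and naïve and TCR libraries overlapped.

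**Figure D3:**
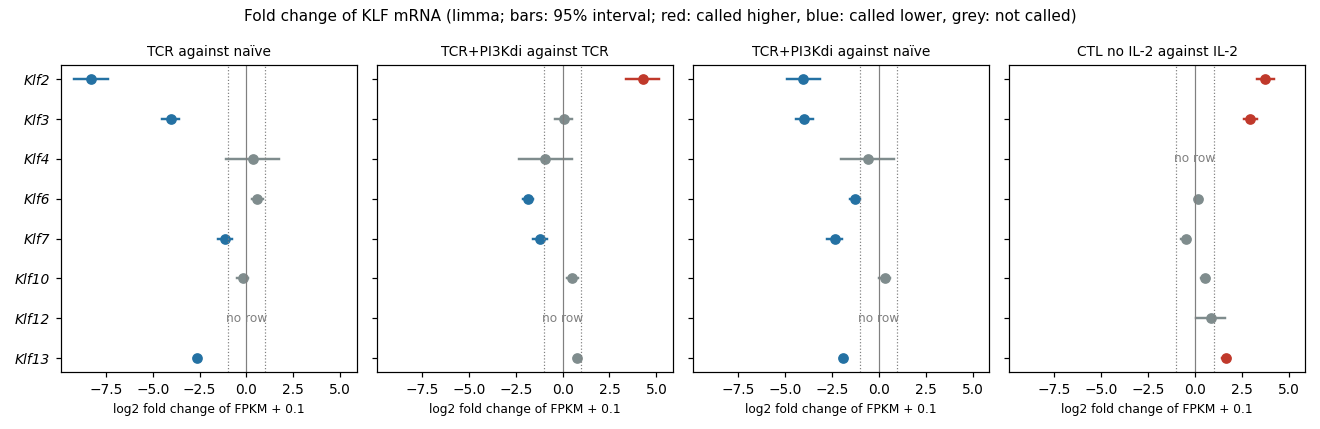
Log2 fold change of FPKM + 0.1 (points) with its 95% interval (bars) for each KLF mRNA in 4 comparisons fitted with limma; dotted lines mark a 2-fold change, red points were called higher, blue points lower and grey points not called. Klf2 is at -8.29 for TCR against naïve, 4.28 for PI3Kdi against TCR and 3.76 for CTL without IL-2, while Klf3 is at 0.06 with PI3Kdi and 2.95 in CTL without IL-2.

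In CTL, the comparison asked what the loss of IL-2 for 24 h does to cells expanded in this cytokine. Klf2, Klf3 and Klf13 mRNA were higher without IL-2, by 14.6-fold, 8.49-fold and 3.17-fold in the ratio of the means. Of the 7 members with a row, 3 were called higher, beside 14.3% of all genes, and 0 were called lower, beside 13.9%. At an unadjusted limma p under 0.05, 1 member was lower (Klf7) and 6 were higher. The labels do not say whether the CTL libraries came from separate cultures or animals, so these p-values measure the spread between the libraries, which may be technical. The median log2 fold change was 0.84 over the members and -0.0009 over all genes.

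Klf2 was at 2.47, 2.51 and 2.3 FPKM in CTL IL-2 and at 45.02, 37.54 and 23.57 FPKM in CTL no IL-2. The lowest library without IL-2 was still above every library with it, and replicate 3 had the smallest ratio, 10.2 against 18.2 and 15.0. Klf2 rose by a log2 fold change of 3.76 ± 0.20 (SE, adjusted p = 5.6e-07, limma). Klf3 was at 0.95, 0.76 and 0.96 FPKM with IL-2 and at 8.46, 6.68 and 7.53 FPKM without it. The groups did not overlap, and the ratios between libraries with the same replicate number were 8.91, 8.79 and 7.84. Klf3 rose by 2.95 ± 0.16 on the log2 scale (SE, adjusted p = 5.1e-07, limma), and by 2.17 when 1 FPKM was added.

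Klf13 was at 37.8, 33.01 and 30.64 FPKM with IL-2 and at 103.2, 105.66 and 112.42 FPKM without it. It was the most abundant member of CTL without IL-2, and the groups did not overlap. Its log2 fold change was 1.66 ± 0.09 (SE, adjusted p = 5.8e-07, limma).

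The other 4 members with a row were not called. Klf6 was at 82.36, 81.95 and 84.96 FPKM with IL-2 and 102.46, 96.47 and 86.32 FPKM without it, a log2 fold change of 0.19 with a 95% interval from 0.01 to 0.37 (adjusted p = 0.058, limma). Klf10 was at 9.37, 10.38 and 9.41 FPKM with IL-2 and 14.85, 15.14 and 12.85 FPKM without it. Its groups did not overlap, and the log2 fold change of 0.55 ± 0.10 (SE, adjusted p = 0.00097, limma) was below the 2-fold limit.

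Klf7 had the opposite sign, at 13.71, 13.99 and 13.27 FPKM with IL-2 and 8.92, 11 and 9.53 FPKM without it. All libraries without IL-2 were lower, and the log2 fold change of -0.48 ± 0.10 (SE, adjusted p = 0.0024, limma) was below the limit. Klf12, a repressor that also binds CtBP, was at 0.29, 0.16 and 0.11 FPKM with IL-2 and 0.48, 0.5 and 0.25 FPKM without it. These ranges overlapped and the levels were low (log2 fold change 0.84, 95% interval 0.08 to 1.59, adjusted p = 0.046, limma). Markers that moved in the same direction were Cd3d, Cd8b1 and Cd3g among T cell genes, Cd4 (0.23 to 1.4 FPKM), Cd79b (1 of 2 B cell markers with a row, whose sum was 5.52 to 13.41 FPKM with IL-2 and 19.08 to 31.08 FPKM without it), Itgam (1 of 2 myeloid markers with a row, 0.293 to 4.09 FPKM) and Itgax (the 1 dendritic cell marker with a row, 0.31 to 4.55 FPKM). Of 2 NK cell markers with a row in CTL, Eomes was called lower, at 14 FPKM without IL-2 against 114 FPKM with it. The other, Klrb1c, was not called, at 2.74 FPKM without IL-2 against 1.65 FPKM with it. The part of all these markers in the KLF results was not tested.

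The summed level of the members with a row was 439.5 ± 44.1 FPKM (SD, n = 3) in naïve cells, 77.47 ± 0.626 in TCR and 64.22 ± 8.77 in TCR + PI3Kdi cells. FPKM is per length, so levels may be compared between genes. Klf2 made up 51.2% of the sum in naïve cells, 0.963% in TCR cells and 21.9% in TCR + PI3Kdi cells. Klf6 made up 7.4%, 62.6% and 21.0% of the sum in the same groups. The first rank thus passed from Klf2 in naïve cells to Klf6 in TCR cells and to Klf13 in TCR + PI3Kdi cells, where Klf13 had 37.0%. In TCR + PI3Kdi cells the shares of Klf2 (16.8% to 26.7%) and Klf6 (18.4% to 23.2%) overlapped. In CTL the sum was 143.8 ± 2.8 FPKM with IL-2 and 269.6 ± 15.7 FPKM without it. Klf6 had 57.8% of the sum with IL-2 and 35.2% without it, and Klf13 had 23.5% and 39.9%. Klf2 had 1.62% to 1.76% with IL-2 and 9.34% to 15.9% without it.

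**Figure D4:**
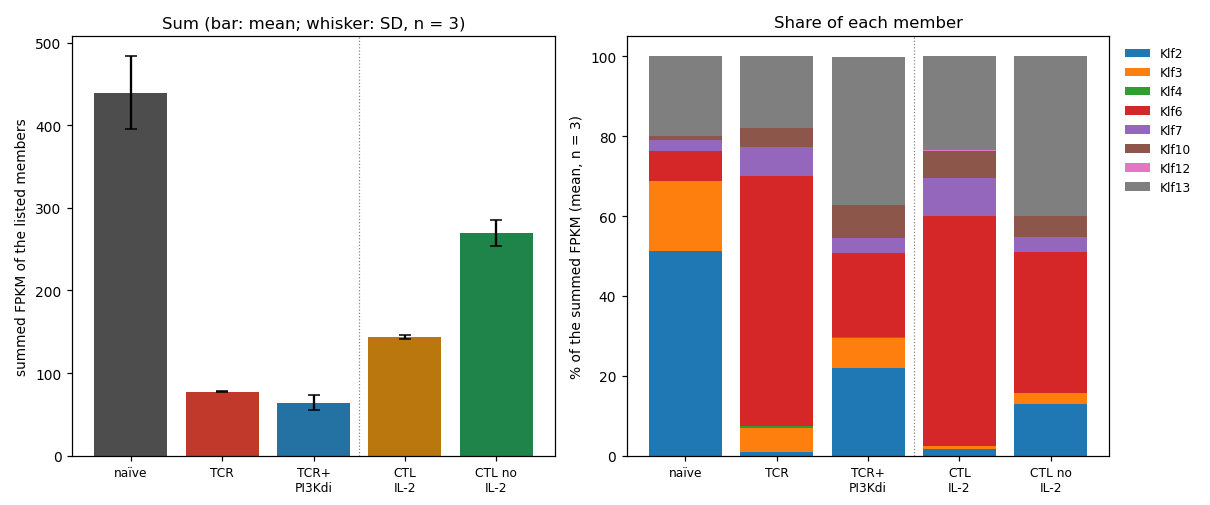
Left, summed FPKM of the 7 KLF mRNA with a row in each table (bars, mean; whiskers, SD, n = 3); right, the mean share of each member in that sum. The sum is 439.5 FPKM in naïve and 77.47 FPKM in TCR cells, and the leading member is Klf2 in naïve cells, Klf6 in TCR cells and CTL IL-2, and Klf13 in the other groups.

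Compared with all genes of its library group, the mean level of Klf2 stood at percentile 98.0 in naïve cells, 10.8 in TCR cells and 56.2 in TCR + PI3Kdi cells, and at 19.7 and 80.2 in CTL with and without IL-2. Set side by side, Klf2 was at 0.38 to 1.46 FPKM in TCR cells and 2.3 to 2.51 FPKM in CTL IL-2, and Klf6 at 47.09 to 49.68 and 81.95 to 84.96 FPKM. Klf3 was at 4 to 4.89 FPKM in TCR cells and 0.76 to 0.96 FPKM in CTL IL-2. Klf13 without IL-2 in CTL (103.2 to 112.42 FPKM) and in naïve cells (86.77 to 87.49 FPKM) was of similar size, whereas Klf3 was at 6.68 to 8.46 FPKM in the first and 66.85 to 91.17 FPKM in the second.

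Other members of the KLF and SP families share the zinc finger fold, and 9 of 18 listed genes had a row in each table. TCR activation gave 2 called higher and 4 called lower, beside 25.0% and 23.7% of all genes. Klf9, a repressor also known as a glucocorticoid target, rose from 0.243 to 1.9 FPKM (log2 fold change 2.55) and Klf16 rose from 14.0 to 30.1 FPKM (1.09), while Sp3 fell from 59.0 to 24.8 FPKM (-1.25), Sp4 from 22.1 to 8.07 FPKM (-1.44), Sp6 from 0.763 to 0.167 FPKM (-1.78) and Sp2 from 34.6 to 17.2 FPKM (-1.01). The fold changes of Klf9 and Sp6 depend on the constant, since Klf9 in naïve and Sp6 in TCR cells were close to the added 0.1 FPKM. With PI3Kdi 1 was called higher than in TCR cells, beside 3.04% of all genes, and 0 lower, beside 2.10%. The 1 called was again Klf9 (5.15, 5.62 and 4.37 FPKM with PI3Kdi against 2.26, 1.91 and 1.52 FPKM without it). Unadjusted limma p was under 0.05 for 1 that was higher and 3 that were lower. Klf9 had a log2 fold change of 1.38 ± 0.22 (SE, adjusted p = 0.0019, limma), and it was higher in TCR + PI3Kdi than in naïve cells too (3.93). In CTL 0 of the 9 were called in either direction by limma, beside 14.3% of all genes called higher and 13.9% called lower. Unadjusted limma p was under 0.05 for 4 that were higher and 1 that was lower. In the same comparison 8056 of 11211 genes passed even the adjusted p without a fold limit.

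The list of regulators upstream of KLF mRNA or protein held FOXO and MEF2 factors, the MEK5 and ERK5 kinases, ubiquitin ligases, and PI3K pathway genes, and 14 of 15 had a row. After TCR activation 8 were called lower, beside 23.7% of all genes, and 1 higher, beside 25.0% (the ligase Wwp1, 5.08 to 10.6 FPKM). Foxo1, the activator of Klf2 transcription, fell from 79.6 ± 2.57 to 16.7 ± 1.56 FPKM (SD, n = 3), a log2 fold change of -2.25 ± 0.09 (SE, adjusted p = 9e-10, limma). Foxo3 and the ligase Smurf1 had log2 fold changes of -1.41 and -1.32. The MEF2 factors Mef2a and Mef2d, the class of factor whose motif stands in the Klf2 window printed above, were called lower as well, at -1.20 and -1.17. With PI3Kdi, 0 of the 14 were called in either direction by limma, beside 3.04% of all genes called higher and 2.10% called lower. Unadjusted limma p was under 0.05 for 4 that were higher and 2 that were lower. Foxo1 mRNA was at 14.49, 14.22 and 14.6 FPKM with the inhibitor and 18.41, 16.27 and 15.38 FPKM without it, and was not called. In CTL without IL-2, 2 were called higher, beside 14.3% of all genes, and 0 lower, beside 13.9%. The 2 called were Foxo1 (15.3 to 35.4 FPKM, log2 fold change 1.20) and Foxo4 (5.04 to 10.7 FPKM, 1.08). Unadjusted limma p was under 0.05 for 5 that were higher and 5 that were lower. The protein or its place in the cell was not measured, and the part of these regulators in the KLF levels was not tested.

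Cofactors that KLF proteins recruit, such as CtBP, SIN3, histone deacetylases and acetyltransferases, had rows for all 11 listed genes in the first table and for 10 in the CTL table. After TCR activation 2 were called higher and 3 lower, beside 25.0% and 23.7% of all genes. Among the acetyltransferases, Kat2b fell from 14.8 to 3.04 FPKM, Crebbp from 28.1 to 9.13 FPKM and Ep300 from 32.2 to 14.5 FPKM, whereas Hdac2 rose from 50.4 to 120 FPKM. Ctbp2 had blank cells, read as 0, in all naïve libraries and was at 0.22 FPKM in TCR cells, so no fold is given for it. With PI3Kdi 1 was called lower, beside 2.10% of all genes, and 0 higher, beside 3.04%. The 1 called was Fhl2 (3.61 to 1.54 FPKM), an LIM protein that binds several transcription factors. Unadjusted limma p was under 0.05 for 1 that was higher and 2 that were lower. In CTL without IL-2, 1 of the 10 was called higher, beside 14.3% of all genes, and 2 lower, beside 13.9%. Kat2b rose from 6.6 to 14.1 FPKM, and Fhl2 and Hdac2 fell, from 28.5 to 7.24 FPKM and from 56.3 to 27.3 FPKM.

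Genes linked to KLF factors in T cells or other cells as targets had a row for 13 of 15 in the first table and for all 15 in the CTL table. After TCR activation 3 were called higher and 6 lower, beside 25.0% and 23.7% of all genes. S1pr1, the receptor for exit from lymph nodes, was at 206.93, 234.65 and 270.27 FPKM in naïve and 5.44, 2.76 and 3.16 FPKM in TCR libraries, and fell by 5.99 on the log2 scale (SE 0.32, adjusted p = 1.3e-08, limma). The gut homing integrin subunit Itgb7 fell from 345 to 16.8 FPKM (log2 fold change -4.38), and the survival gene Bcl2l1 rose from 6.41 to 123 FPKM (4.23). The cell cycle inhibitor Cdkn1a and the galectin gene Lgals3 were called higher but had blank cells, read as 0, in all 3 naïve libraries, so no fold is given.

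With PI3Kdi 3 of these genes were called higher than in TCR cells and 2 lower, beside 3.04% and 2.10% of all genes. Among them, Itgb7 rose from 16.8 to 62.5 FPKM (log2 fold change 1.91) and the chemokine receptor Cxcr3 from 6.67 to 19.3 FPKM (1.52), while Cdkn1a and Bcl2l1 fell by 1.66 and 1.51 on the log2 scale. S1pr1 was not called with PI3Kdi. It was at 2.18, 3.8 and 5.89 FPKM with PI3Kdi, which overlapped the range of 2.76 to 5.44 FPKM in TCR cells, and it was at 3.96 FPKM on average where naïve cells had 237 FPKM.

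In CTL without IL-2, 8 of the 15 were called higher and 6 lower, beside 14.3% and 13.9% of all genes. S1pr1 rose here, from 10.27, 9.92 and 4.14 FPKM with IL-2 to 141.92, 126.55 and 96.49 FPKM without it (log2 fold change 3.98 ± 0.31, SE, adjusted p = 3.2e-06, limma). Ccl5, the chemokine gene that KLF13 is known to activate, rose from 84.6 to 1650 FPKM (4.36). In the first table, where Klf13 fell from 87.06 to 13.81 FPKM on activation, Ccl5 was at 2.89 FPKM in naïve, 3.71 in TCR and 2.85 FPKM in TCR + PI3Kdi cells and was not called in any comparison. Cdkn2b and Bcl2l1 fell from 43.1 to 3.86 FPKM (-3.47) and from 90.4 to 12.1 FPKM (-2.89). This list holds activated and repressed genes, and its members were chosen for their link to KLF factors with earlier results of these data known.

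The genes whose course was most like that of each member were found as the smallest root mean square difference between centred log2(FPKM + 0.1) profiles, over the 9 libraries of the first table and the 6 libraries of the CTL table. These distances describe likeness over few groups and were not tested. In the first table the nearest to Klf2 among 10071 genes were Tcp11l2, Tmem71, Cd1d1, Scml4 and Gm11346, at 1.03 to 1.16. Tcp11l2 was at 77.4 FPKM in naïve, 0.97 in TCR and 3.83 FPKM in TCR + PI3Kdi cells. These distances were larger than those of the nearest genes of the other members. The nearest to Klf13 was Trim21 at 0.0813, to Klf10 C330006A16Rik at 0.104, to Klf3 Slc27a6 at 0.2, to Klf7 Plin2 at 0.269 and to Klf6 Axl at 0.302. The nearest to Klf4 was H2-Eb1, an MHC class II gene of B cells and other antigen presenting cells, at 0.512. In the CTL table the nearest to Klf2 among 10262 genes were Fam124b, Il6ra, Arl4d, Smpdl3a and Serpini1, at 0.223 to 0.317, and Il6ra rose from 0.0433 to 2.25 FPKM. The nearest to other members there were Itgb3 for Klf3 (0.098), Npc2 for Klf13 (0.0193), Ttf2 for Klf6 (0.0228), Esyt1 for Klf10 (0.0384) and Car5b for Klf12 (0.093). Some of these distances depend on the constant. With IL-2, Il6ra and Fam124b (0.05 FPKM) were below the added 0.1 FPKM. Gm11346 in TCR cells (0.0833 FPKM) was below it too. Slc27a6 was close to it in TCR (0.13 FPKM) and TCR + PI3Kdi cells (0.12 FPKM).

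Among the members themselves, Klf3 was the nearest to Klf2 in both tables, at a distance of 2.05 and rank 234 among all ranked genes in the first table, and of 0.502 and rank 60 in CTL. For Klf3 the nearest member was Klf13 in the first table (0.899) and Klf2 in CTL (0.502). Klf6 and Klf7 were each other's nearest members in the first table, at 0.764.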

How the data were processed

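RNA was sequenced from 15 samples of mouse P14 CD8+ T cells, as paired reads of 75 bases from a stranded mRNA kit. The authors deposited FPKM: per the methods and the submitters' processing notes, reads were aligned with STAR 2.5.2b to mm10, counted with Subread 1.5.1, filtered, TMM-normalised in edgeR and divided by exon length. For the CTL table the same steps were assumed. Values had 2 decimals, and blank cells of the first table were read as 0. Read totals per library are not given in the sources used here. An estimate from the spacing of low FPKM used only values between 0.04 and 0.12 FPKM times kilobase. This window bounds the read total in advance, so no depth is given and no limit of detection was set.

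Samples were grouped by title, since treatment labels of CTL IL-2 replicates 2 and 3 name other interleukins. The values log2(FPKM + 0.1) were fitted with limma 3.58.1 in R 4.3.3 with an intensity trend, the 9 libraries of the first table in one fit and the 6 CTL libraries in another, without a replicate block. Benjamini-Hochberg adjustment ran over every gene of a table, and calls needed an adjusted p under 0.05 and a change over 2-fold. The fits were tested on simulated data with independent noise and changes well over 2-fold in genes whose mean FPKM reached 1. This does not cover changes near the 2-fold limit, genes at low levels or paired libraries. Whether replicate numbers pair libraries was checked by the correlation, across genes, of deviations from the group means. For TCR and TCR + PI3Kdi libraries it was 0.275, 0.203 and 0.506, and for CTL it was 0.123, 0.166 and 0.257. With 3 libraries per group few matchings are possible, so these values cannot establish pairing. Pairing of CTL libraries is not stated in the sources used here, and CTL ratios by replicate number are a description. For naïve and TCR libraries the mean was -0.03. Per the methods, each pool was divided between the naïve, TCR and TCR + PI3Kdi conditions, so pairing in the first table comes from the design.

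The 8 members and the gene lists were chosen with earlier results of these data known. Named genes were all members, up to 4 called genes of largest change per list and comparison, and the nearest genes by profile (5 for Klf2, 1 for others). A few genes that this rule names are not reported here. Klf16, Sp2, Wwp1, Mef2a, Mef2d, Ep300, Bcl2l1, and S1pr1, Ccl5 and Foxo1 where they fall outside this rule, and the marker genes, were named after their values were seen. Exon overlaps are from GENCODE M21. Promoter windows are from RefSeq, without Klf10. Alternatives were a pseudocount of 1 or 0.01, median scaling, testing only genes whose mean FPKM reached 1, no trend, a replicate block, each replicate left out, only the groups compared, and other fold limits. Python 3.11.15, pandas 2.3.3, numpy 2.4.6 and matplotlib 3.10.9 were used.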

Additional observations from a re-analysis of the deposited data

How the results depend on the processing

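Of 325 values of single KLF genes under the alternatives, 309 kept their direction and side of the threshold, 10 gained a call and 1 lost it, and 5 changed sign. All 10 gains came with a lower fold limit. The fold limits, the mean filter, no trend, the block and the choice of groups leave the fold change as it was. Its sign could not change under those settings, so they do not test the direction. The loss was Klf7 with PI3Kdi at a pseudocount of 1. Changes of sign were found for Klf4 and Klf3, none of them called: Klf4 between TCR and naïve cells was -0.000421 at a pseudocount of 1 and -0.12 (without replicate 3) to 1.11 (without replicate 2) with a replicate left out, with -0.0011 without replicate 1. Klf4 between TCR + PI3Kdi and naïve cells was -1.36 (without replicate 1) to 0.14 (without replicate 2), and Klf3 between TCR + PI3Kdi and TCR cells was -0.12 (without replicate 3) to 0.21 (without replicate 1). The cause was not tested. Without a fold limit, calls over all genes were 9096 for TCR against naïve (5490 with the limit), 1975 for PI3Kdi against TCR (579), 8906 for TCR + PI3Kdi against naïve (5063) and 8056 in CTL (3166), and 5 members in the PI3Kdi comparison and 6 in CTL passed. At a limit of 1.5-fold, 1120 genes were called for PI3Kdi and 5657 in CTL. These counts grow because the limit is lower. For PI3Kdi a pseudocount of 1 gave 311 calls, and leaving out 1 replicate gave 323 to 574, the lowest without replicate 2. With the replicate block, 591 genes were called for PI3Kdi and 3168 in CTL, with 3 members each, and the block changed no call of a KLF gene. The limits of these data are 3 libraries per group, FPKM without read counts, and values near the pseudocount for Klf4, Klf12, Klf9 in naïve cells, and Klf2 and Sp6 in TCR cells. Values near the pseudocount also limit the likeness found for Fam124b, Il6ra, Gm11346 and Slc27a6.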
